A study of Arabidopsis thaliana with 6 samples.

Results

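The GASA genes of Arabidopsis encode small secreted peptides named after their regulation by gibberellin, and 10 of them, GASA1 to GASA6, GASA9, GASA10, GASA12 and GASA14, were examined by their locus identifiers among the 31608 genes and loci measured. Of these 10 genes, 9 had counts above 0. PolyA RNA was sequenced from siliques, the fruits that hold the developing seeds, at 4 days after pollination. There were 3 libraries from wild-type Col-0 plants and 3 from the mee45-1 mutant. No treatment or further allele is given in the labels, which call the tissue both silique and seed and speak of both 3 repeats and duplicate collection. The mutant libraries share their titles with allele names (mee45-1, mee45-2, mee45-3) and are taken here as repeats of 1 genotype. Each value is a mean that the authors took over the 3 libraries of 1 genotype, as an estimated count or as FPKM (fragments per kilobase of transcript, scaled to depth), so no spread between libraries can be given. The words rose and fell are kept for genes that the authors' deposited table gives an adjusted p under 0.05. The labels do not say whether the libraries came from separate plants, so that p covers at most how these libraries vary, and that variation may be technical. Log2 fold changes are of the mean FPKM in mee45 relative to Col-0.

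A GASA peptide carries a signal sequence for secretion, a variable stretch, and a conserved C-terminal domain rich in cysteines. Gibberellin binds the GID1 receptors, and the bound receptor sends the DELLA proteins, repressors of growth, to degradation through the F-box protein SLY1. Several GASA genes respond to the hormone, some by induction and others by repression, and members of the family have been tied to cell elongation, flowering, germination and seed development.

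Mean depth was 20242476 counts per library in Col-0 and 20530953 in mee45. MEE45 (AT4G00260), the mutated gene, which encodes a B3-domain protein, had 62 counts in all in Col-0 and 3 counts in mee45. After scaling to depth this is 4.77% of the wild-type level (exact 95% interval from counting error, 0.958% to 14.6%), and MEE45 fell with adjusted p = 4.34e-06 from the authors' deposited table. Markers of seed coat (summed means of 964 FPKM in both genotypes), of silique valve and valve margin (226 and 276 FPKM) and of endosperm (38.4 and 43.8 FPKM) were detected in both genotypes. Those of the maturing embryo were at 3432 FPKM in Col-0 and 38.8 FPKM in mee45. In siliques, which mix many cell types, fewer cells of a type and less RNA per cell cannot be told apart. The siliques were matched by day after pollination, and the stage of their seeds was not tested.

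All 10 genes share the domain that defines the family. In the RefSeq annotation of TAIR10.1, each of the 10 coding sequences held 12 cysteine codons among its last 60 codons, and the deposited annotation puts each of them in the extracellular region and in the gibberellic acid mediated signaling pathway, terms carried by 4.71% and 0.212% of the table's genes. Coding length ran from 89 codons in GASA10 to 275 in GASA14. GASA14 stands apart by its long middle part, in which 77 codons, or 35.8% of those before the last 60, encode proline. GASA10 has 2 coding exons and the others have 3 or 4. Coding sequences were between 24.0% and 86.0% identical over the 45 pairs of genes, with a median of 53.7%. The most alike were GASA2 and GASA3, neighbours on chromosome 4 whose transcripts share a run of at most 35 bases. That is shorter than the sequenced read of 150 bases, so no full-length read matches 2 of the 10 genes exactly.

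The 250 bases before the annotated start are shown for the GASA gene with the smallest p among those that rose (GASA4), for the only one that fell (GASA10) and for the one with the highest level in mee45 (GASA12). Coordinates are of TAIR10.1, each sequence reads 5′ to 3′ on the strand of its gene, and capitals mark any match to the motifs searched on both strands.
GASA4 (chr5:4944566-4944815, plus strand): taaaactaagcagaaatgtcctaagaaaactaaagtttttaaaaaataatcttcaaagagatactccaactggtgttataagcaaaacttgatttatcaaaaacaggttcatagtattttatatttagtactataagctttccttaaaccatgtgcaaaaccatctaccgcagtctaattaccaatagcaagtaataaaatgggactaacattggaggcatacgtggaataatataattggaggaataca
GASA10 (chr5:24111054-24111303, plus strand): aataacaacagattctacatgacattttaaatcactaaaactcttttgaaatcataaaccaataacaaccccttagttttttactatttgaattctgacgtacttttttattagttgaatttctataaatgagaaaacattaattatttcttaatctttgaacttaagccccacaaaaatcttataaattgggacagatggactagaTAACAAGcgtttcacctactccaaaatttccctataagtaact
GASA12 (chr2:13128667-13128916, minus strand): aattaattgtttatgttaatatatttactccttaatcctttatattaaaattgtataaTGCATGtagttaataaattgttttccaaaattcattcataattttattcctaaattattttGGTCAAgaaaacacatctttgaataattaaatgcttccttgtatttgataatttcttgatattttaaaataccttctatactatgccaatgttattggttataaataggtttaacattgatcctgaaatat
The motifs were TAACAAA or TAACAAG (a gibberellin response element), CATGCA (the core of the RY element bound by B3 factors of seed maturation), CACGTG (the G-box), TGTCTC (an auxin response element) and TTGACC or TTGACT (the W-box of WRKY factors). GASA10 held TAACAAG at position -43 from its start, a motif class found in 20.1% of the 27443 promoters of that length, and GASA9 was the only other of the 10 genes with it. With 2 of the 10 genes, the family was near the share of all promoters. None of the 5 genes that rose held it in this window, and a link to direction was not tested. GASA12 held CATGCA and GGTCAA (the reverse complement of TTGACC), and GASA4 matched none of the motifs. CATGCA was found in 8.43% of all promoters and in 3 of the 10 genes, GASA2, GASA9 and GASA12. In GASA2 it lay in an overlapping run of 3 matches from position -140 to -131.

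GASA transcripts were abundant in siliques, but most of the signal came from 4 genes. In Col-0 the order of mean levels was GASA1, GASA12, GASA10, GASA6, GASA14, GASA4, GASA9, GASA5, GASA3 and GASA2. GASA1, GASA12, GASA10 and GASA6 together made up 94.9% of the summed FPKM of the 10 genes in Col-0 and 91.3% in mee45. At 810.2 FPKM, GASA1 had only 40 of the 31608 genes and loci above it in Col-0. GASA9 was at 8.16 FPKM, GASA5 at 0.693 and GASA3 at 0.11, and GASA2 was listed at 0. In mee45 GASA12 stood first and GASA1 second, and GASA6 passed GASA10. Whether neighbours in this order differ beyond the spread between libraries cannot be told from means.

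**Figure D1:**
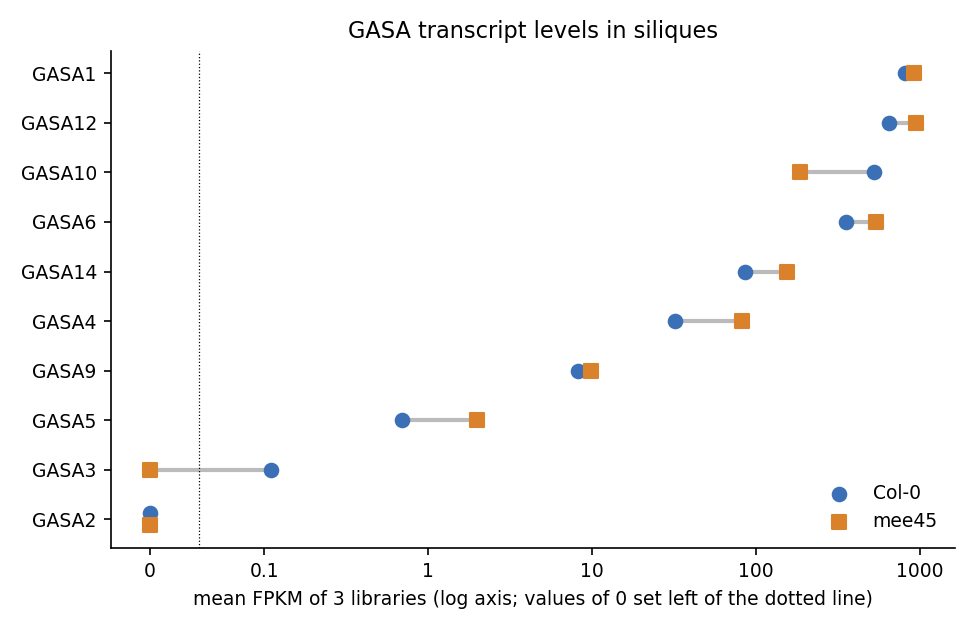
Mean FPKM (log axis) of the 10 GASA genes in Col-0 (circles) and mee45 (squares), each point the authors' mean over 3 libraries, with values of 0 placed left of the dotted line. GASA10 moved to the left in mee45, from 522 to 185 FPKM, as did GASA3, from 0.11 FPKM to 0, while GASA4, GASA5, GASA6, GASA12 and GASA14 moved to the right.

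Between the genotypes 5 of the 9 measured genes rose in mee45 (GASA4, GASA5, GASA6, GASA12 and GASA14) and 1 fell (GASA10), and GASA1, GASA3 and GASA9 did not pass. Over the 25434 genes tested in all, 6.67% rose and 9.15% fell. At an adjusted p under 0.01, 5 GASA genes rose beside 4.24% of all genes and 1 fell beside 6.45%. At an unadjusted p under 0.05 the numbers were again 5, beside 11.4% of all genes, and 1, beside 13.5%. With at least 1.5-fold as a further condition 4 rose (all genes, 4.02%) and 1 fell (6.88%), and with at least 2-fold 2 rose (1.93%) and 1 fell (4.42%). Kept to genes with a mean count of at least 10 in 1 genotype and adjusted again, 5 rose (8.25%) and 1 fell (11.3%). The 8 genes with counts in both genotypes had a median log2 fold change of 0.58. With GASA3 set at its bound of 3 counts it was 0.55. Over all 24055 genes with counts in both genotypes the median was 0.0018. Over the 20267 with at least 10 mean counts in both it was 0.0051. Abundant genes pass such a test more easily than scarce ones, and the 10 genes were chosen with earlier results of these data known, so these counts describe the genes and are no test of the family.

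GASA4 (AT5G15230), tied in Arabidopsis to floral meristem identity and seed size, lies on chromosome 5 from 4944816 to 4946299 and overlaps no other annotated gene. Its mean level was 32.0 FPKM in Col-0 and 82.1 FPKM in mee45, from mean counts of 407 and 1062. It rose 2.56-fold, a log2 fold change of 1.36, with adjusted p = 1.95e-14 from the authors' deposited table. Counting error alone leaves the mee45 level between 241% and 275% of that in Col-0 (exact 95% interval). Only 0.385% of all tested genes had a smaller p.

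GASA14 (AT5G14920), the member with the proline-rich middle part, known from work on leaf expansion and stress tolerance, lies on the same chromosome, from 4826141 to 4828384. Its mean level went from 84.9 to 154 FPKM, and its mean counts from 2013 to 3684. The rise was 1.81-fold (log2 fold change 0.86, adjusted p = 4.90e-10 from the authors' deposited table). This was the next smallest p among the genes that rose.

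GASA6 (AT1G74670) and GASA12 (AT2G30810) rose less in proportion but added the most transcript. GASA6, which in Arabidopsis promotes germination and elongation of the embryonic axis downstream of gibberellin, went from 352 to 537 FPKM, a rise of 1.53-fold with adjusted p = 0.000658 from the authors' deposited table. Its exons, on chromosome 1 between 28053030 and 28054149, share 206 of 910 bases with AT1G74675 on the opposite strand. Whether counting used the strand is not given here, so reads of the pair cannot be told apart with certainty. GASA12, on chromosome 2 from 13127826 to 13128666, went from 647 to 948 FPKM, a rise of 1.47-fold with adjusted p = 0.000358 from the authors' deposited table. In mee45 only 32 genes and loci had a higher level than GASA12.

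GASA5 (AT3G02885), which delays flowering in Arabidopsis, had the largest fold of the genes that rose and the fewest reads. Its counts summed over 3 libraries were 27 in Col-0 and 78 in mee45, and its mean level was 0.693 and 1.97 FPKM. The log2 fold change was 1.51 (adjusted p = 0.00272 from the authors' deposited table), and counting error alone leaves the mee45 level between 182% and 459% of that in Col-0. The order of GASA5 and GASA4 by fold is inside that interval.

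**Figure D2:**
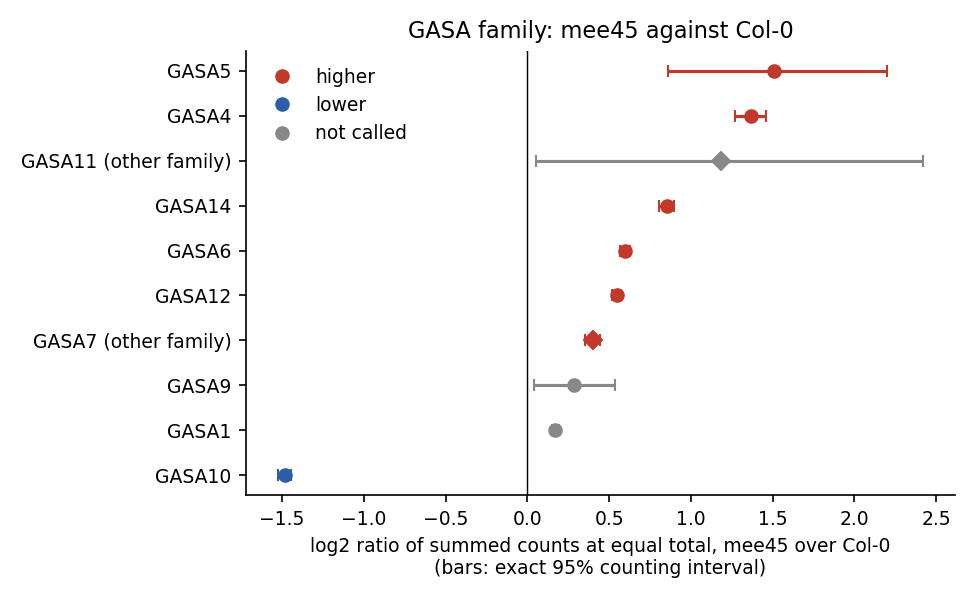
Log2 ratio of summed counts at equal total counts, mee45 over Col-0, for the GASA family genes with a fold, with exact 95% counting intervals that do not cover the spread between libraries; circles are the 10 genes examined, diamonds other family genes, and colour gives the call in the authors' deposited table. GASA10 is the only gene left of 0, at -1.48, and GASA5 has the widest interval of the genes that rose.

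GASA10 (AT5G59845) was the only one of the 10 genes that fell. It encodes a cell wall protein known to be strongly expressed in developing anthers and seeds of Arabidopsis, and lies on chromosome 5 from 24111304 to 24112100. Its mean level went from 522 FPKM in Col-0 to 185 FPKM in mee45, and its mean counts from 6323 to 2294. The mee45 level was 2.82-fold lower, a log2 fold change of -1.50, with adjusted p = 6.72e-12 from the authors' deposited table, and at equal depth it was 35.8% of that in Col-0 (exact 95% counting interval 34.8% to 36.8%). In Col-0 98 genes and loci had a higher level than GASA10, and in mee45 578. Among the genes that fell in the whole comparison, 643 had a larger decrease.

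Markers of the maturing embryo, of pollen and anther and of seed coat were looked up beside GASA10. Of 16 markers of the maturing embryo, 14 fell and the late markers EM1 and EM6 were at 0 in both genotypes, and their summed level went from 3432 FPKM in Col-0 to 38.8 FPKM in mee45. Their median log2 fold change was -7.24, and the smallest decrease among the 14 was that of FUS3 at -1.88, a larger decrease than the -1.50 of GASA10. Of 4 pollen and anther markers, VEX1 fell from 11.3 to 2.82 FPKM. AMS fell from 0.223 to 0.0467 FPKM, on only 25 and 5 summed counts. PPME1, at 2.43 and 3.19 FPKM, and AT5G17340, at 0.0267 and 0.15 FPKM, did not pass the test. The summed level of the 4 went from 13.9 to 6.20 FPKM, a decrease carried mainly by VEX1. Of 5 seed coat markers, TT10 fell, with a log2 fold change of -1.61, while TT12 and AHA10 rose, and BAN and STK did not pass the test. The part of these tissues in the fall of GASA10 was not tested.

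Some markers of 3 other tissues rose, as did TT12 and AHA10 of the seed coat. All 3 photosynthetic markers rose (all genes, 6.67%), their summed level going from 8152 to 11654 FPKM. Of 5 endosperm markers 4 rose and ZOU fell (all genes, 9.15%). Of 4 silique valve markers 2 rose (IND and SHP1), while ALC and FUL did not pass the test. These counts too describe the genes and are no test of a tissue. The part of these tissues in the rise of the 5 GASA genes was not tested.

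GASA1 (AT1G75750), the most abundant member in Col-0, had 810.2 FPKM there and 914 FPKM in mee45, and did not pass the test (log2 fold change 0.17, adjusted p = 0.503 from the authors' deposited table). Its counting interval was 111% to 114% of the Col-0 level, which does not cover the spread between libraries. GASA9 (AT1G22690) was at 8.16 and 9.78 FPKM, with a log2 fold change of 0.26 and adjusted p = 0.547 from the authors' deposited table. The counting interval of GASA9 was 103% to 145% of the Col-0 level, and 11 of its 764 exon bases are shared with AT1G22700 on the opposite strand.

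GASA2 (AT4G09610) and GASA3 (AT4G09600), whose transcripts are known from siliques and dry seeds, were at or near 0. GASA2 had 0 counts over the 3 libraries of either genotype, which allows up to 3 counts per genotype. GASA3 had 4 counts in all in Col-0 and none (0) in mee45, with adjusted p = 0.408 from the authors' deposited table. The exact counting interval runs from 0% to 149% of the Col-0 level, so a loss could not be told from no change at this depth.

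Both the make-up and the total of GASA transcript differed between the genotype means. The summed level of the 10 genes was 2457 FPKM in Col-0 and 2832 FPKM in mee45, a ratio of 1.15. Without GASA10 the sum was 1935 and 2646 FPKM, a ratio of 1.37. GASA10 went from 21.3% to 6.54% of the summed FPKM, GASA12 from 26.3% to 33.5%, GASA6 from 14.3% to 19.0%, GASA14 from 3.46% to 5.43% and GASA4 from 1.30% to 2.90%. GASA1 held 33.0% and 32.3%. These shares carry no error between libraries and were not tested.

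**Figure D3:**
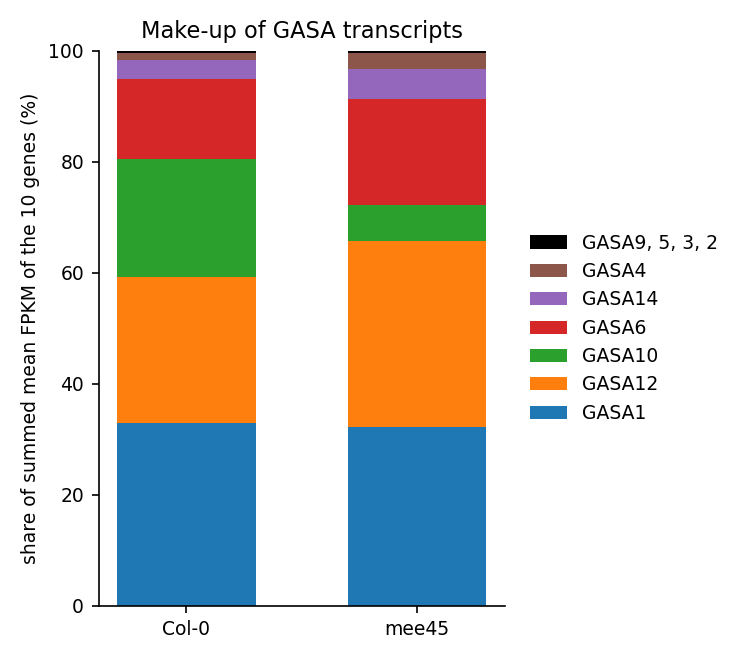
Share (%) of the summed mean FPKM of the 10 GASA genes taken by each gene, as stacked bars for Col-0 and mee45 that reach 100%. The band of GASA10 shrinks from 21.3% to 6.54%, while GASA12 and GASA6 take a larger share and GASA1 stays near 33.0%.

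The family holds further genes outside the 10. GASA7 (AT2G14900) rose, from 165 to 217 FPKM, a log2 fold change of 0.40 with adjusted p = 0.0118 from the authors' deposited table. GASA11 (AT2G18420) had 10 and 23 summed counts and did not pass the test. AT3G10185 and AT1G10588 had at most 2 summed counts in a genotype, and AT2G39540 had 0 in both. AT2G39540 and AT1G10588 are the genes closest to GASA10 in coding sequence, at 80.4% and 80.5% identity, so the only member that fell belongs to a group of 3 similar genes of which it alone was expressed above the floor of 3 summed counts. Over all 15 genes the summed level was 2623 FPKM in Col-0 and 3049 FPKM in mee45.

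Upstream of the GASA genes, the gibberellin pathway did not move in a single direction. Of 41 pathway genes, all with counts above 0, 5 rose, 10 fell and 26 did neither. Called genes were 36.6% of them, beside 15.8% of all genes tested. By direction 12.2% rose and 24.4% fell, beside 6.67% and 9.15% of all genes. This list and the shorter ones below were chosen with earlier results known, and abundant genes pass more easily. Their counts describe the genes and are no test of the pathway. The median log2 fold change was -0.07 over the 39 genes with a fold, and -0.03 with the other 2 at their bound or at 0.

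For synthesis, 2 of the 5 early enzymes fell (all genes, 9.15%). These were the ent-kaurene oxidase gene GA3 (AT5G25900), from 54.1 to 38.3 FPKM with adjusted p = 0.00226 from the authors' deposited table, and KAO1 (AT1G05160), which encodes the next oxidase, from 47.2 to 30.2 FPKM with adjusted p = 0.000117 there. Among the 9 oxidases of the activating steps, 1 fell (all genes, 9.15%) and 1 rose (6.67%), shares near those of all genes. GA20OX3 (AT5G07200) fell, from 107 to 34.9 FPKM, and GA20OX5 (AT1G44090) rose, from 2.54 to 4.42 FPKM. Of 11 genes listed here under inactivation, 4 fell (all genes, 9.15%) and 1 rose (6.67%). GA2OX6 had a log2 fold change of -1.83, CYP714A2 of -1.04, the methyltransferase gene GAMT1 of -0.48 and CYP714A1 of -0.31, whereas GA2OX2 rose by 0.36.

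For perception and signalling, 4 of the 5 DELLA genes changed, 3 upwards (all genes, 6.67%) and 1 downwards (9.15%). RGL1 (AT1G66350) rose from 36.7 to 59.6 FPKM, with adjusted p = 1.09e-06 from the authors' deposited table. GAI (AT1G14920) rose from 11.2 to 16.9 FPKM, and RGL2 (AT3G03450), the DELLA that restrains germination, from 21.8 to 31.5 FPKM. RGL3 (AT5G17490) fell from 3.14 to 1.56 FPKM, and RGA (AT2G01570) was at 28.9 and 30.8 FPKM without passing the test. None of the 3 GID1 receptor genes passed, the smallest p being that of GID1B (AT3G63010), with 1.28 and 0.743 FPKM and adjusted p = 0.0930 from the authors' deposited table. None of the 4 genes of DELLA turnover and modification passed either, the smallest p being that of SEC (AT3G04240), an O-GlcNAc transferase, at 37.7 and 34.5 FPKM (adjusted p = 0.593 there). Of the 4 response regulators, 2 fell (all genes, 9.15%), and neither passed at an adjusted p under 0.01. SCL3 (AT1G50420), which opposes DELLA action, fell from 10.5 to 7.86 FPKM, and MYB101 (AT2G32460), a GAMYB-like factor, from 7.97 to 5.21 FPKM.

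**Figure D4:**
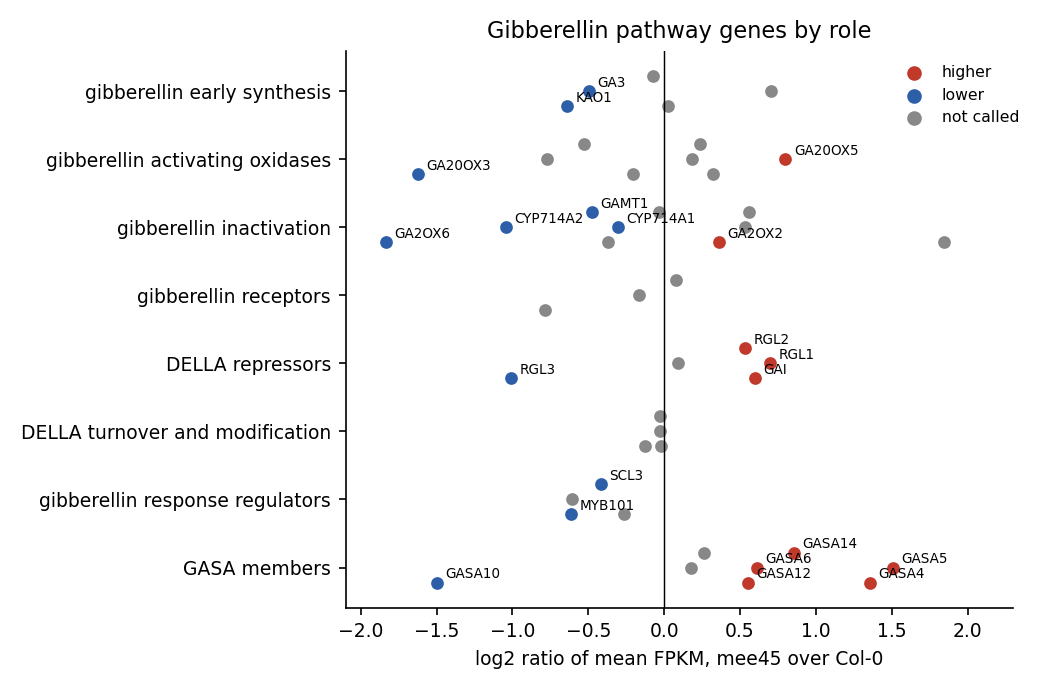
Log2 fold change (mean FPKM in mee45 relative to Col-0) of gibberellin pathway genes grouped by role, with the GASA genes in the bottom row; each point is 1 gene with a fold, and red, blue and grey mark genes called higher, lower and not called in the authors' deposited table. RGL1, GAI and RGL2 lie right of 0 and RGL3 left of it, and receptor and DELLA turnover genes are all grey.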

How the data were processed

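Per the submitters' processing notes, the tools were RSEM, edgeR, Cufflinks, TopHat2 2.0.3.12, Bowtie2 2.2.8 and fastp 0.18.0, and the build was TAIR10. The notes as used here give no roles. The deposited estimated counts and the deposited FPKM values were averaged by the authors within a genotype. Multiplied by 3, 95.2% of the mean counts above 0 in either genotype were whole, with a tolerance of 0.01 on the mean. All p-values and adjusted p-values come from the authors' deposited table. The log2 column of the authors' deposited table equals log2 of mee45 FPKM over Col-0 FPKM, where 0.001 stands for 0, and its adjustment equals Benjamini-Hochberg over the 25434 genes above 0 counts. Which edgeR test was run is not given here.

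The design assumed that only genotype means were at hand, so the genotypes were not tested anew. Exact binomial 95% intervals on summed counts and floors of 3 counts cover counting error only, because they pool the libraries of a genotype. Reads copied by PCR are not independent molecules, so the intervals may be too narrow even for that. Sequences, exons and motifs are from the RefSeq annotation of TAIR10.1 (Biopython 1.88, SciPy 1.17.1), and all 10 genes matched by locus. The genes, gene lists and motifs were chosen with earlier results of these data known. Named genes are all GASA family genes listed, every called gene of a pathway list or the 1 with the smallest p, and the 3 genes nearest in level to the called GASA gene with the smallest p in each direction. RGA, the uncalled tissue markers and the neighbours of GASA loci are named outside this rule, chosen after their values were seen. The counting interval and the Benjamini-Hochberg adjustment were checked on simulated counts with counting error only. The motif search was checked on short known sequences. These checks do not bear on the authors' calls or on the spread between libraries.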

Additional observations from a re-analysis of the deposited data

How the results depend on the processing

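No paired analysis was possible because the values are means per genotype. The planned count tests by edgeR and DESeq2, the replicate block and leaving out each library need values per library and were not run. Genes that rose numbered 5 of the GASA genes, and 2 (GASA4 and GASA5) with a change of at least 2-fold; GASA10 fell under every threshold tried, and the 5 also passed at an adjusted p under 0.01. Of the pathway genes, 5 rose in the main count, 3 at an adjusted p under 0.01 (all genes, 4.24%), 8 at an unadjusted p under 0.05 (11.4%), 3 with at least 1.5-fold (4.02%) and 0 with at least 2-fold (1.93%). In the main count 10 fell, 7 at an adjusted p under 0.01 (6.45%), 15 at an unadjusted p under 0.05 (13.5%), 6 with at least 1.5-fold (6.88%) and 4 with at least 2-fold (4.42%). Kept to a mean count of at least 10, 5 rose (8.25%) and 12 fell (11.3%). With log2(FPKM + 1), which shrinks low genes by construction, GASA5 was at 0.81 against 1.51. Scaling to the total or to the median ratio of counts, and the other pseudocount results, moved no GASA gene past its counting interval and reversed no sign, and these scalings moved the median of genes with at least 10 counts by less than 0.1. Depth limits GASA2, GASA3 and GASA5.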

Other observations

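Genes beside the GASA loci were also looked up. Of 13 neighbouring genes with values in the table, other than GASA2 and GASA3 themselves, 12 had counts above 0 and 1 of them was called, beside 15.8% of all genes tested. This was AT5G14910 next to GASA14, which rose from 76.2 to 95.4 FPKM (log2 fold change 0.32, adjusted p = 0.0318 from the authors' deposited table). AT5G59850, which encodes a cytosolic ribosomal protein and follows GASA10, was at 176 and 195 FPKM. AT2G30800 and AT2G30820 on either side of GASA12 had log2 fold changes of 0.01 and 0.06.

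Likeness to a GASA gene was measured as the distance over log2 FPKM of the 2 genotype means, among 18905 genes with at least 1 FPKM in both. The 3 genes nearest to GASA4 were AT2G28790, AT4G23820 and COL16 (AT1G25440), at distances of 0.17, 0.17 and 0.19. COL16 had 28.4 FPKM in Col-0 and 78.0 FPKM in mee45. For GASA10 the nearest were AT2G25450, SRC2 (AT1G09070) and RGP4 (AT5G50750), at 0.35, 0.38 and 0.40. In Col-0 98 genes and loci lay above GASA10 and 4797 above GASA4, so the 2 sets of distances are not compared. RGP4 had 450.0 FPKM in Col-0 and 147 FPKM in mee45. With only 2 points per gene, this likeness is a description of level and ratio.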
